A study of Mus musculus with 9 samples.

Results

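Store-operated calcium entry and release through inositol trisphosphate (IP3) receptors are represented here by 9 genes. These are the 2 calcium sensors of the reticulum *Stim1* and *Stim2*, the 3 pore-forming channels *Orai1*, *Orai2* and *Orai3*, the cation channel *Trpc1*, and the 3 IP3 receptors *Itpr1*, *Itpr2* and *Itpr3*. They were chosen by name, and all 9 were found by Ensembl ID among the 55471 genes of the count table. RNA was taken from the gastrocnemius, a calf muscle, of newborn mice at postnatal day 0 to 1, labelled C57BL/6 in both groups. The groups were 5 *Shank3Δ11(−/−)* mice (KO1 to KO5), bred from heterozygous C57BL/6JRj parents and carrying a germline deletion of exon 11 of *Shank3*, and 4 *Shank3(+/+)* mice (WT1 to WT4). Each mouse gave 1 library of whole muscle, and no sex or litter is given in the labels.

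STIM proteins sit in the membrane of the endoplasmic or sarcoplasmic reticulum and sense the calcium inside it. When the store empties they gather at junctions with the plasma membrane and open Orai channels, through which calcium enters and refills the store. IP3 receptors are the channels that release calcium from the reticulum when Gq-coupled receptors activate phospholipase C. In skeletal muscle, release for contraction runs through the ryanodine receptor, and variants of STIM1 or ORAI1 cause myopathy in patients.

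Levels are given as CPM, counts relative to the total of a library, scaled per library with TMM factors, and a mouse gave between 26444372 and 40471957 counts on genes. The study left out KO2 and KO4 for insufficient reads, so KO1, KO3 and KO5 were compared with WT1 to WT4, and the comparison was repeated with all 9 mice. In the deposited gene counts these 2 mice were not the shallowest, since KO4 had the highest total of the 9 and KO2 (28211941) exceeded the retained KO5 (26444372). Single genes were tested with edgeR's quasi-likelihood test (log2 fold change with its standard error, SE) and with a 2-sided exact permutation test of log2 CPM. The smallest p of the latter is 0.0286 for 3 against 4 mice and 0.00794 for 5 against 4. Following the study, a call needed both an unadjusted p below 0.05 and a false discovery rate (FDR) under 25%. *Shank3* itself ranged from 25.7 to 35 CPM in the *Shank3Δ11(−/−)* mice and from 32.4 to 38.5 CPM in *Shank3(+/+)*, and a count over the whole gene does not check the loss of 1 exon. All 6 muscle fibre markers were counted in every mouse, with a sum of 46250 to 54140 CPM, and so were all markers of the 11 other cell types listed. Single libraries held the highest sums of other lists: Schwann cell (411 CPM) and adipocyte markers (981 CPM) in KO5, erythroid markers (2537 CPM) in KO1, and cartilage and bone (198 CPM) and fibroblast markers (14150 CPM) in KO4. Among the *Shank3(+/+)* mice, WT4 held the highest sum of keratinocyte markers of all mice (38.9 CPM). In whole muscle, fewer cells of a type and less RNA per cell cannot be told apart.

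In the neonatal gastrocnemius all 9 genes were expressed in every mouse, from 80 counts for *Trpc1* to 6462 for *Stim1*, and none passed the test between the genotypes. None of the 9 had an unadjusted p below 0.05 in either comparison, where 2.08% of the 21809 genes tested had one for 3 against 4 mice and 2.03% of the 21735 for 5 against 4. None was called, as for all genes (0% in both comparisons). The study reported differentially expressed genes at these thresholds with limma, a result that edgeR did not return here. In none of the 9 genes did the genotypes separate without overlap, which 2.83% of all genes did in the 7 mice and 0.681% in the 9. With 7 mice, 4 of the genes were higher in *Shank3Δ11(−/−)* and 5 lower, and their median change on the log2 scale was -0.01, as over all genes. The median size of the change was 0.07 on the log2 scale, against 0.10 over all genes, and the largest was 0.14. With 9 mice, 5 were higher and 4 lower, the median was 0.03 and the largest change was 0.16.

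The intervals give the range of change that the data allow. The 95% interval of the fold change lay within 1.5-fold in either direction for 8 of the 9 genes with 7 mice, the exception being *Trpc1*, and for 9 of 9 with all mice. Over all genes tested this held for 57.4% and 64.3%. The 8 genes without *Trpc1* had bounds between 0.760-fold and 1.34-fold with 7 mice and between 0.797-fold and 1.45-fold with 9. The SE of the log2 fold change ran from 0.11 to 0.24 over the 9 genes with 7 mice and from 0.10 to 0.20 with 9.

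**Figure D1:**
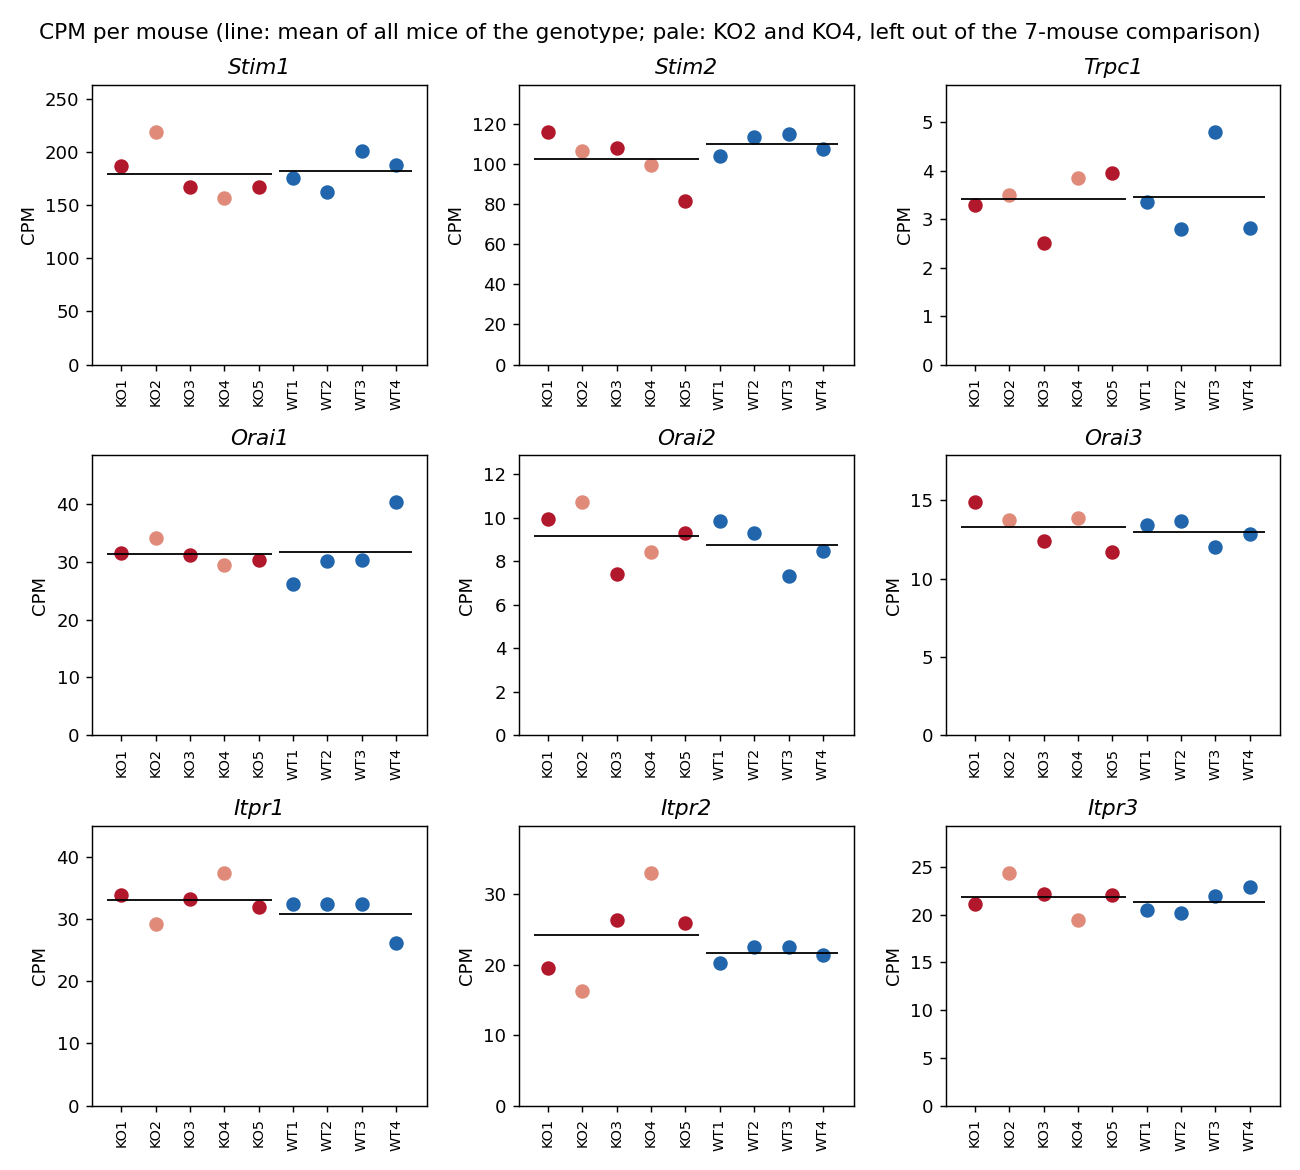
CPM of the 9 genes in each mouse (vertical axes start at 0 and differ between genes); dark red points are KO1, KO3 and KO5, pale red KO2 and KO4, blue WT1 to WT4, and lines are the means of the 5 *Shank3Δ11(−/−)* and 4 *Shank3(+/+)* mice. The genotypes overlap in every panel; *Itpr2* spreads from 16.3 to 33.1 CPM in *Shank3Δ11(−/−)* and from 20.2 to 22.5 CPM in *Shank3(+/+)*.

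**Figure D2:**
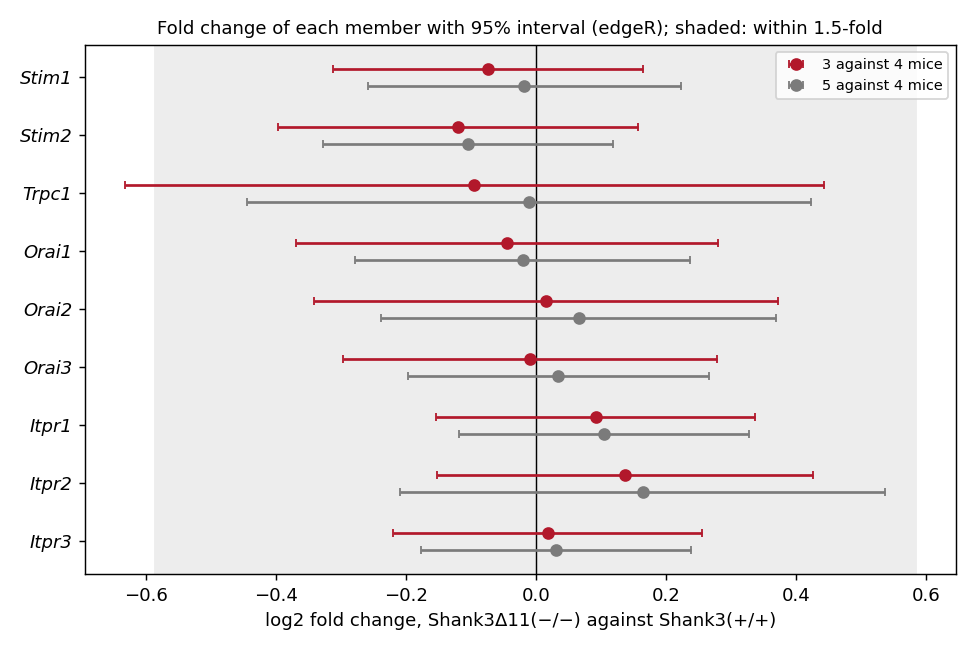
Log2 fold change of each gene, *Shank3Δ11(−/−)* against *Shank3(+/+)*, with its 95% interval from edgeR, for 3 against 4 mice (red) and 5 against 4 (grey); the shaded band marks changes within 1.5-fold. Every interval includes 0, and only that of *Trpc1* with 7 mice leaves the band.

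The promoters of the genes with the highest and the lowest CPM, *Stim1* and *Trpc1*, are shown as the 250 bases before the RefSeq start site (GRCm38.p6), read along the gene's strand with each CG dinucleotide in capitals. That of *Stim1* lies at chr7:102267569-102267818 on the plus strand and that of *Trpc1* at chr9:95750349-95750598 on the minus strand. The GENCODE models of both genes begin slightly upstream of the RefSeq site.
Stim1: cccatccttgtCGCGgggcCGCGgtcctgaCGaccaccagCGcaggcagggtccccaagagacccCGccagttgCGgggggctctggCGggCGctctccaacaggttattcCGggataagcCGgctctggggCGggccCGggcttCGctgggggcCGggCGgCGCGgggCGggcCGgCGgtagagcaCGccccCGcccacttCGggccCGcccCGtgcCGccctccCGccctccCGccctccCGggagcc
Trpc1: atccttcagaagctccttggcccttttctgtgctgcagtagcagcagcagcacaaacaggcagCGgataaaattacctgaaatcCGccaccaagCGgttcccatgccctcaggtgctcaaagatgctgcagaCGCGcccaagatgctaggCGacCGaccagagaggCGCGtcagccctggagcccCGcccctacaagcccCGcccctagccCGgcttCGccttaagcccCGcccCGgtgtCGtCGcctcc
The letters CG, which read the same on both strands, occurred 31 times before *Stim1* and 17 times before *Trpc1*. Of 32851 mouse promoter windows of this length, with a median of 6, 5.19% held at least as many as *Stim1* and 23.5% at least as many as *Trpc1*. Windows were found for 8 of the 9 genes, all but *Itpr1*. *Stim2* and *Orai1* had 30 each, *Itpr3* 25, *Itpr2* 22 and *Orai2* 17, and *Orai3* had 7, a number that 46.3% of promoters reach. These are counts of letters only, and no measurement here reads promoter activity.

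*Stim1* (ENSMUSG00000030987, chr7:102267806-102437319 of mm10 by GENCODE M21, plus strand) encodes the sensor that gates Orai channels, and had the highest CPM of the 9. It was at 187, 219, 167, 157 and 167 CPM in KO1 to KO5. In WT1 to WT4 it was at 175, 162, 201 and 188 CPM. Both the highest mouse (KO2) and the lowest (KO4) carried the deletion and were the ones the study left out, and the groups overlapped. The means were 174 ± 11.3 CPM (SD, n = 3) and 182 ± 16.6 CPM (SD, n = 4), a log2 fold change of -0.07 (SE 0.11, p = 0.513 and FDR = 1.00 from edgeR, exact permutation p = 0.543). The 95% interval of the fold change was 0.806 to 1.12. With all 5 *Shank3Δ11(−/−)* mice the log2 fold change was -0.02 (SE 0.11, exact permutation p = 0.841). Leaving out 1 mouse moved it from -0.10 (without KO2) to 0.03 (without WT3), and the 7-mouse value from -0.13 (without KO1) to -0.01 (without WT3).

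*Stim2* (ENSMUSG00000039156, chr5:53998499-54121057, plus strand) encodes the second sensor, which responds to smaller losses of stored calcium. It was at 116, 107, 108, 99.6 and 81.6 CPM in KO1 to KO5 and at 104, 114, 115 and 108 CPM in WT1 to WT4. KO5 was the lowest mouse and KO1 the highest, so the *Shank3Δ11(−/−)* mice spanned the whole *Shank3(+/+)* range. The log2 fold change was -0.12 (SE 0.13, p = 0.360 and FDR = 1.00 from edgeR, exact permutation p = 0.571) with 7 mice. Without KO5 it was 0.01, and without KO1 -0.22. With 9 mice it was -0.10 (SE 0.10, exact permutation p = 0.357), a fold change between 0.797 and 1.09, and without KO5 it was -0.03.

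Of the Orai genes, whose products form the hexameric channel pore, *Orai1* (ENSMUSG00000049686, chr5:123015074-123030456, plus strand) was the highest. It was at 31.6, 34.1, 31.1, 29.5 and 30.3 CPM in KO1 to KO5 and at 26.2, 30.2, 30.3 and 40.4 CPM in WT1 to WT4. The lowest and the highest mouse were both *Shank3(+/+)*, and all 5 *Shank3Δ11(−/−)* mice lay between them. Its log2 fold change was -0.04 (SE 0.15, p = 0.771 from edgeR, exact permutation p = 1.00) with 7 mice and -0.02 (SE 0.12, edgeR p = 0.871) with 9. Without WT4 the sign turned, to 0.10 with 7 mice and 0.12 with 9.

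*Orai2* (ENSMUSG00000039747, chr5:136147459-136170713, minus strand), whose product can join ORAI1 in mixed channels, was at 9.95, 10.7, 7.42, 8.4 and 9.29 CPM in KO1 to KO5. In WT1 to WT4 it was at 9.84, 9.30, 7.34 and 8.49 CPM. The log2 fold change was 0.02 (SE 0.16, exact permutation p = 0.83) with 7 mice and 0.07 (SE 0.14, exact permutation p = 0.611) with 9. Single mice turned its sign, the 7-mouse value being -0.07 without KO1, -0.05 without WT3 and -0.02 without KO5, against 0.13 without KO3. *Orai3* (ENSMUSG00000043964, chr7:127769815-127775150, plus strand), a paralog found only in mammals, was at 14.9, 13.7, 12.4, 13.9 and 11.7 CPM in KO1 to KO5 and at 13.4, 13.7, 12.0 and 12.9 CPM in WT1 to WT4. KO1 was the highest and KO5 the lowest, with all *Shank3(+/+)* mice between them. Its log2 fold change of -0.01 (SE 0.13, exact permutation p = 0.971) with 7 mice had an interval of 0.814 to 1.21 in fold, and was 0.04 (SE 0.11, exact permutation p = 0.698) with 9. Without KO1 the 7-mouse value was -0.12 and without KO5 0.06.

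*Trpc1* (ENSMUSG00000032839, chr9:95705082-95750375, minus strand) encodes a cation channel that has been placed in store-operated entry beside STIM1. It had the fewest reads of the 9 genes, 80 to 147 per mouse. The levels were 3.29, 3.50, 2.52, 3.86 and 3.95 CPM in KO1 to KO5 and 3.35, 2.81, 4.81 and 2.83 CPM in WT1 to WT4. KO3 was the lowest mouse and WT3 the highest. Its log2 fold change was -0.09 (SE 0.24, p = 0.705 from edgeR, exact permutation p = 0.771) with 7 mice, and the interval of 0.645 to 1.36 in fold was the widest of the 9. With 9 mice the log2 fold change was -0.01 (SE 0.20, exact permutation p = 0.976) and the interval 0.735 to 1.34. Leaving out 1 mouse moved the 7-mouse value from -0.26 (without KO5) to 0.11 (without WT3), with -0.18 without WT2, -0.17 without WT4 and 0.06 without KO3. With 9 mice it was 0.19 without WT3.

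*Itpr1* (ENSMUSG00000030102, chr6:108213096-108551109, plus strand) encodes the IP3 receptor that is most abundant in the brain. It was at 33.9, 29.1, 33.2, 37.5 and 31.9 CPM in KO1 to KO5 and at 32.3, 32.3, 32.4 and 26.1 CPM in WT1 to WT4. WT4 was the lowest of the 9 mice, and the other 3 *Shank3(+/+)* mice lay within 32.33 to 32.38 CPM. The log2 fold change was 0.09 (SE 0.11, p = 0.424 and FDR = 1.00 from edgeR, exact permutation p = 0.314) with 7 mice. Without WT4 it was 0.03. With 9 mice it was 0.11 (SE 0.10, exact permutation p = 0.317), and KO2 and KO5 lay below WT1 to WT3. It was then 0.03 without WT4 and 0.05 without KO4.

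*Itpr2* (ENSMUSG00000030287, chr6:146108299-146502223, minus strand), which encodes the receptor with the highest affinity for IP3, varied most between the mice. In KO1 to KO5 it was at 19.6, 16.3, 26.4, 33.1 and 25.9 CPM, and in WT1 to WT4 at 20.2, 22.5, 22.4 and 21.4 CPM. All 5 *Shank3Δ11(−/−)* mice lay outside the *Shank3(+/+)* range, KO3, KO4 and KO5 above it and KO1 and KO2 below it. The log2 fold change was 0.14 (SE 0.13, p = 0.316 and FDR = 1.00 from edgeR, exact permutation p = 0.314) with 7 mice and 0.16 (SE 0.17, edgeR p = 0.356, exact permutation p = 0.579) with 9. Single libraries moved this value: with 9 mice it was 0.02 without KO4 and 0.28 without KO2, and with 7 mice 0.27 without KO1, 0.06 without KO3 and 0.07 without KO5. Its upper bound of 1.45-fold was the highest of the 9 genes with all mice.

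The summed level of 4 endothelial markers (*Pecam1*, *Cdh5*, *Kdr* and *Tek*), all counted in every mouse, followed *Itpr2* in part, and was picked from the 12 marker lists after the values were seen. The sum was 609, 508, 656, 710 and 650 CPM in KO1 to KO5 and 547, 583, 645 and 567 CPM in WT1 to WT4. KO4, KO3 and KO5 were the 3 highest mice in this order for both *Itpr2* and the sum, and KO2 was the lowest for both. KO1, the second lowest for *Itpr2*, was the fifth highest for the markers. This order held for the sum and for none of the 4 markers singly: WT3 lay above KO5 for *Pecam1*, *Cdh5* and *Kdr*, and KO3 had the third lowest *Tek* (56.3 CPM). The 4 satellite cell and myoblast markers ran the other way in some mice, with sums of 253 CPM in KO4 and 282 CPM in KO5, the 2 lowest, and 399 CPM in KO2. The endothelial sums ranged from 508 to 710 CPM in *Shank3Δ11(−/−)* and from 547 to 645 CPM in *Shank3(+/+)*, and the part of either list in the spread of *Itpr2* was not tested.

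*Itpr3* (ENSMUSG00000042644, chr17:27057304-27122223, plus strand), whose product is abundant in epithelial and secretory cells, was at 21.1, 24.4, 22.1, 19.4 and 22.0 CPM in KO1 to KO5. In WT1 to WT4 it was at 20.4, 20.2, 21.9 and 22.9 CPM. The *Shank3(+/+)* mice lay within the *Shank3Δ11(−/−)* range. The log2 fold change was 0.02 (SE 0.11, exact permutation p = 0.600) with 7 mice and 0.03 (SE 0.10, exact permutation p = 0.690) with 9, which bounds the fold change between 0.885 and 1.18. Leaving out 1 mouse moved the 7-mouse value from -0.01 (without WT2) to 0.06 (without WT4). The 9-mouse value moved from -0.01 (without KO2) to 0.07 (without KO4 or WT4). An antisense gene, *Itpr3os*, overlaps 233 bases (2.58%) of the annotated exons of *Itpr3*. For *Orai1* the overlap with other annotated genes was 7 bases and for *Itpr1* 181 and 108 bases, while the remaining 6 genes shared no exon. Since strandedness is not given in the sources used here, reads in these stretches could not be assigned to either gene.

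The spread between mice, whatever the genotype, differed from gene to gene. The standard deviation of log2 CPM over the 9 mice was smallest for *Itpr3* (0.10, smaller than for all but 5.57% of genes tested) and *Orai3* (0.11, 8.03%). It was 0.14 to 0.19 for *Itpr1*, *Stim2*, *Stim1*, *Orai1* and *Orai2*. The largest were *Trpc1* (0.28) and *Itpr2* (0.29), above the median of 0.23 over all genes, while the median of the 9 was 0.16. Counting error alone gives *Trpc1* a coefficient of variation of 9.63%, against 20.5% observed, whereas for *Itpr2* it gives 3.69%, against 21%. The highest mouse stood 2.03-fold above the lowest for *Itpr2*, 1.91-fold for *Trpc1* and 1.26-fold for *Itpr3*.

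The question of which paralog supplies most transcript was addressed with shares of the summed CPM of each family. *Stim1* gave 61.6, 67.2, 60.8, 61.1 and 67.2% of the Stim reads in KO1 to KO5 and 62.7, 58.8, 63.6 and 63.6% in WT1 to WT4. The means differed by 1.01 percentage points with 7 mice (exact permutation p = 0.743) and 1.41 with 9 (p = 0.484, exact permutation). Leaving out 1 mouse took the 7-mouse difference from -1.0 (without KO5) to 2.23 points (without KO3). *Stim1* thus took more reads than *Stim2* in 9 of 9 mice, and its share overlapped between the genotypes.

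Within the Orai family *Orai1* gave 53.0 to 65.4% of the reads, *Orai3* 20.9 to 27.2% and *Orai2* 13.7 to 19.9% over the 9 mice. This order held in each of the 9 mice. All 3 *Orai* shares had their extremes in *Shank3(+/+)*: *Orai1* ran from 53.0% in WT1 to 65.4% in WT4, and the 5 *Shank3Δ11(−/−)* mice lay between 56.0% and 61.1%. With 7 mice the mean share of *Orai1* was 58.7 ± 2.58% (SD, n = 3) with the deletion and 59.0 ± 5.36% (SD, n = 4) without it, with an exact permutation p of 0.943. The difference was 0.29 percentage points for *Orai2* (exact permutation p = 0.857) and 0.02 for *Orai3* (exact permutation p = 1.00). Leaving out 1 mouse turned the sign of each, with ranges of -2.34 to 1.80 points for *Orai1*, -0.62 to 1.43 for *Orai2* and -1.19 to 0.91 for *Orai3*, whose ends come from leaving out WT1 or WT4.

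Among the IP3 receptors *Itpr1* took the largest share of reads in each of the 9 mice. It gave 45.5, 41.7, 40.6, 41.6 and 39.95% in KO1 to KO5 and 44.3, 43.1, 42.2 and 37.1% in WT1 to WT4. *Itpr2* gave 26.2, 23.3, 32.3, 36.8 and 32.5% in KO1 to KO5, a wider range than the 27.7, 30.0, 29.2 and 30.4% in WT1 to WT4. The second place went to *Itpr2* in some mice and to *Itpr3* in others: *Itpr3* gave 34.9% in KO2 and 21.6% in KO4, the 2 mice at the ends of its range. With 7 mice the differences in mean share were 0.34 points for *Itpr1*, 0.99 for *Itpr2* and -1.33 for *Itpr3* (exact permutation p = 0.914, 0.600 and 0.543). Single mice moved these: *Itpr1* was at -1.38 points without KO1, *Itpr2* at 3.03 without KO1 and near 0 without KO3, and *Itpr3* at -0.16 without WT4. With 9 mice the *Itpr3* difference was -1.08 points (exact permutation p = 0.746). No share of any of these families separated the genotypes.

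**Figure D3:**
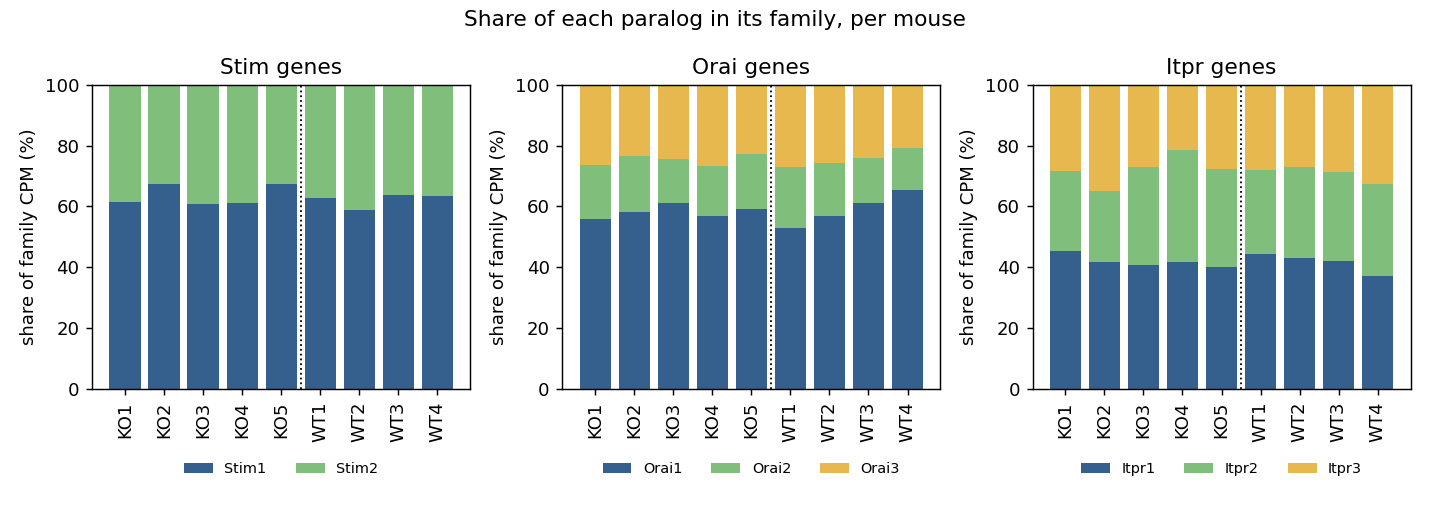
Share of each paralog (percent of the summed CPM of its family) in KO1 to KO5 and, right of the dotted line, WT1 to WT4, for the Stim, Orai and Itpr genes. *Stim1*, *Orai1* and *Itpr1* take the largest share in 9 of 9 mice. The *Itpr2* and *Itpr3* segments vary most and in opposite directions, at 23.3% and 34.95% in KO2 and at 36.8% and 21.6% in KO4.

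The family totals overlapped between the genotypes as well. The Stim genes summed to 249 to 326 CPM in *Shank3Δ11(−/−)* and 276 to 316 CPM in *Shank3(+/+)*, and the Orai genes to 50.9 to 58.5 and 49.5 to 61.7 CPM. The IP3 receptors summed to 69.8 to 89.9 CPM in *Shank3Δ11(−/−)* and 70.3 to 76.8 CPM in *Shank3(+/+)*.

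A read share favours long transcripts, so levels between genes were compared per kilobase. Per kb of all annotated exons the order was *Stim2* (mean over 9 mice 20.6 CPM per kb), *Stim1* (17.4), *Orai1* (13.7), *Orai3* (6.16), *Itpr3* (2.40), *Itpr1* (1.75), *Itpr2* (1.56), *Orai2* (1.48) and *Trpc1* (0.428). *Orai1* stood above *Orai3* in 9 of 9 mice without overlap. Neighbours whose ranges overlapped were *Stim2* and *Stim1* (*Stim2* above in 7 of 9 mice), *Stim1* and *Orai1* (*Stim1* above in 9 of 9), *Itpr1* and *Itpr2* (6 of 9) and *Itpr2* and *Orai2* (5 of 9).

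The length taken changed parts of that order. The annotated exons of *Stim1* span 10371 bases but its longest principal transcript 4085, whereas those of *Stim2* span 5133 and 4934. Per kb of principal transcript *Stim1* was first at 44.2 CPM per kb (38.4 to 53.7), above *Stim2* at 21.5 (16.5 to 23.6) without overlap, and gave 63.3 to 71.2% of the Stim total against 41.4 to 50.4% per kb of all exons. In the same way *Itpr3* had the highest mean of the IP3 receptors per kb of exon (below *Itpr2* in KO4, at 2.15 against 2.23) and the lowest of the 3 per kb of principal transcript (2.40, after *Itpr1* at 3.25 and *Itpr2* at 2.77), with overlapping ranges. The first place of *Orai1* among the Orai genes held on both scales, with 59.1 to 70.4% per kb of exon and 60.2 to 71.4% per kb of principal transcript. *Trpc1* was last on both. Which transcripts were made was not measured by these gene counts.

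**Figure D4:**
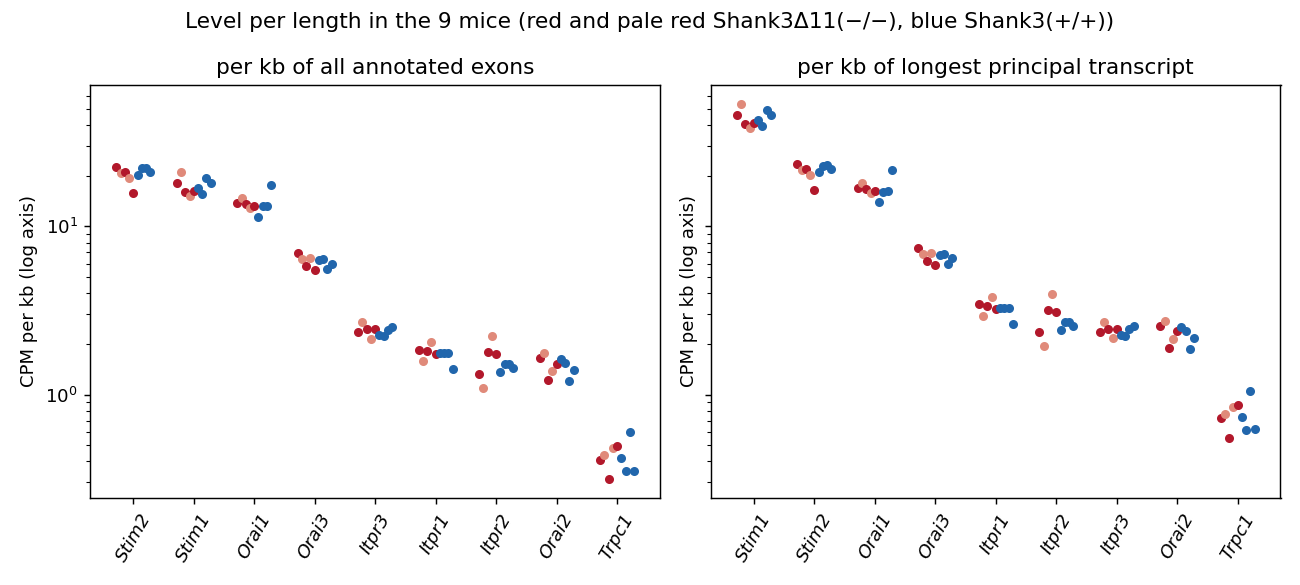
Level of each gene in the 9 mice in CPM per kb, on a log axis, per kb of all annotated exons (left) and of the longest principal transcript (right), ordered by the mean; red and pale red are *Shank3Δ11(−/−)*, blue *Shank3(+/+)*. *Stim1* and *Stim2* change places between the panels (17.4 and 20.6 against 44.2 and 21.5 CPM per kb), and *Trpc1* is last in both.

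For scale, the ryanodine receptor *Ryr1*, the release channel of skeletal muscle, was at 25.97 to 38.0 CPM per kb of exon in the 9 mice. The 3 IP3 receptors together came to 5.40 to 6.43 CPM per kb. *Ryr1* therefore exceeded their sum by 4.76 to 6.58 times per kb of exon and by 4.59 to 6.52 times per kb of principal transcript.

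The level of *Xist*, the RNA of the inactive X chromosome, put KO3, KO5, WT3 and WT4 (620 to 921 CPM) apart from the other mice (0.142 to 3.04 CPM), so both classes held both genotypes. Within the high class *Itpr2* was higher in *Shank3Δ11(−/−)* by 0.26 on the log2 scale (2 against 2 mice), and in the low class the difference was -0.13 for KO1 against 2 mice and 0.04 with KO2 and KO4 added. *Stim1* differed by -0.22 in the high class and by 0.15 (1 against 2) or 0.14 (3 against 2) in the low class. With 7 mice 7 of the 9 genes had opposite signs in the 2 classes. *Itpr1* and *Orai2* had the same sign in both, at 0.16 and 0.07 for *Itpr1* and 0.07 and 0.06 for *Orai2*. With the class as a term in the edgeR fit, the p of each of the 9 genes stayed above 0.05 in both comparisons.

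Genes whose level ran most nearly parallel to a member over the 9 mice were ranked among 21735 genes by the root mean square difference of standardised log2 CPM, in SD units. Nearest to *Stim1* were *Zfyve26* (0.253), *Map4* (0.260) and *5330439B14Rik* (0.286). *Map4*, which encodes a microtubule-associated protein, was at 557 CPM in KO2 and 436 CPM in KO4, the same highest and lowest mice as for *Stim1*. For *Orai1* the nearest were *Gm6594* (0.300), *Pcdhga7* (0.323) and *Gm9211* (0.326), and for *Itpr1* *Prdx2-rs3* (0.259), *Gm48906* (0.261) and *Gm19880* (0.285). Of these 6, 5 are annotated as processed pseudogenes, whose reads could come from other copies.

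Around the 9 genes, 57 other genes of the pathway were listed by role, and 52 passed the filter on low counts. None had an unadjusted p below 0.05 in either comparison, against 2.08% and 2.03% of all genes. With 7 mice 28 were higher in *Shank3Δ11(−/−)* and 24 lower, their median change on the log2 scale being 0.02 against -0.01 over all genes, and with 9 mice 31 were higher and 21 lower. Since none reached the threshold, the examples named from these lists were chosen after their values were seen.

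Regulators of STIM and Orai were split 6 higher and 5 lower of 11 with 7 mice. *Saraf*, whose product switches STIM1 off after refilling, was at 67.5 to 88.7 CPM over the 9 mice with a log2 fold change of 0.04 (SE 0.11). *Surf4*, a cargo receptor that binds STIM1, was at 174 to 200 CPM with a log2 fold change of 0.02 (SE 0.10). *Cracr2a*, an ORAI1-binding protein, was at 1.68 to 2.63 CPM, and *Tmem178* had the smallest p of the 11 (log2 fold change -0.34, SE 0.25, FDR = 1.00 from edgeR) with 7 mice, but -0.10 with 9. *Esyt1* and *Esyt2*, the tethers between reticulum and plasma membrane, had log2 fold changes of -0.14 and 0.10.

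On the IP3 side, the 4 Gq alpha subunits included *Gnaq* (56.9 to 86.3 CPM, log2 fold change 0.15, SE 0.16) and *Gna11* (64.2 to 80.4 CPM, log2 fold change 0.11, SE 0.09). The 12 phospholipases C were 7 higher and 5 lower with 7 mice. *Plcg1* (99.1 to 123 CPM) and *Plce1* (92.8 to 119 CPM) were the highest of these in CPM, with log2 fold changes of 0.04 and -0.12 (SE 0.10 and 0.11). *Plch1*, at 0.219 to 0.887 CPM, had the largest change of the 52 at -0.69 (SE 0.46, FDR = 1.00 from edgeR) with 7 mice, and -0.35 (SE 0.39) with 9. Without KO3 its log2 fold change with 7 mice was -1.58, with an unadjusted p below 0.05 and an FDR of 0.971 from edgeR.

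Of 13 tested regulators of the IP3 receptors 7 were higher and 6 lower. *Irag2*, which encodes a reticulum membrane protein that binds the receptors, had the smallest p of the 52 genes in both comparisons, with a log2 fold change of 0.39 (SE 0.23) with 7 mice and 0.33 (SE 0.20) with 9, and an FDR of 1.00 from edgeR in both. *Ahcyl1*, which competes with IP3 at the receptor, was at 86.6 to 115 CPM with a log2 fold change of -0.04 (SE 0.12). *Erlin1* and *Erlin2*, whose complex leads activated receptors to degradation, had log2 fold changes of -0.12 and -0.10. Of 6 tested enzymes that break down IP3 or its products, 2 were higher and 4 lower, among them *Itpkb* (log2 fold change 0.03) and *Inpp5a* (-0.07). The calcium pumps of the plasma membrane were led by *Atp2b1* (111 to 137 CPM) and *Atp2b4* (57.8 to 75.7 CPM), with log2 fold changes of 0.05 and 0.01.

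**Figure D5:**
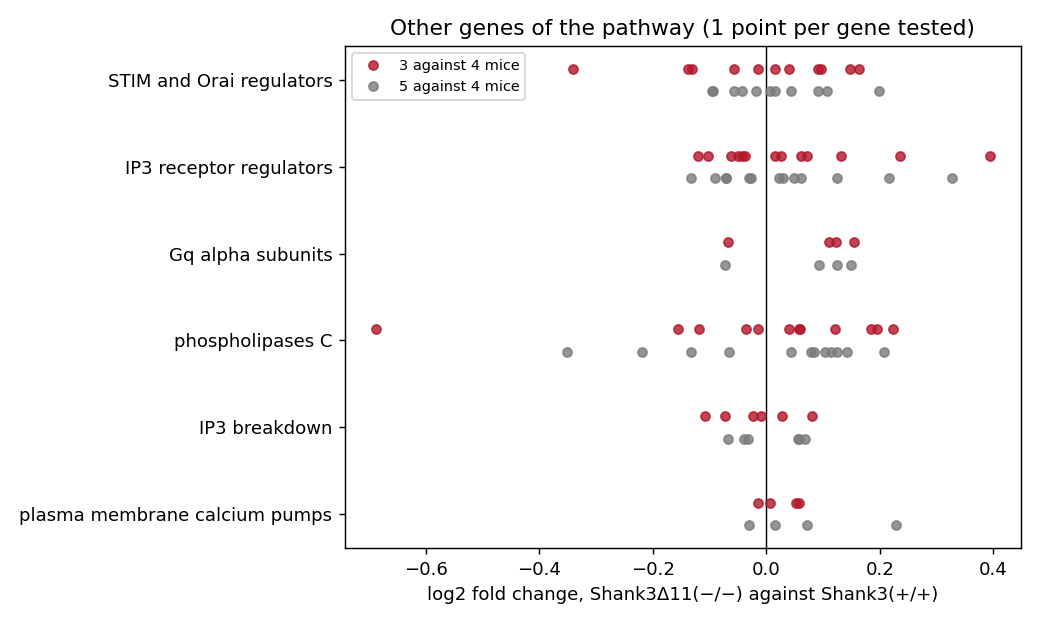
Log2 fold change, *Shank3Δ11(−/−)* against *Shank3(+/+)*, of other pathway genes tested, 1 point per gene, for 6 of the 7 roles listed (1 role is not drawn), for 3 against 4 mice (red) and 5 against 4 (grey). Points lie on both sides of 0 in each role drawn and run from -0.69 (*Plch1*) to 0.39 (*Irag2*) with 7 mice.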

How the data were processed

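The counts, as deposited by the authors, are whole numbers of reads per Ensembl gene, without normalization. The authors mapped reads to mm10 with HISAT2 and counted them with featureCounts; the annotation release, the strandedness and how multiply mapped reads were treated are not stated in the sources used here. Depth was 26444372 to 40471957 counts per mouse (median 31435732). Of 55471 gene IDs, 55144 were matched to GENCODE M21, which also gave positions and lengths. Genes passed edgeR's filterByExpr (minimum count 10, minimum total 15). edgeR 4.0.16 in R 4.3.3 was run with TMM factors and robust quasi-likelihood tests, with Benjamini-Hochberg adjustment over all genes tested, and permutation tests used scipy 1.17.1. CPM used TMM factors over the 9 mice; log2 CPM took a prior count of 2. The study used limma; limma-voom 3.58.1 and DESeq2 1.42.0 were alternatives, beside other normalizations, no filter, no robust estimation, an *Xist* term, a replicate block and each mouse left out. The tests were tried on simulated data. The naming rule covered all 9 genes, the 3 nearest profiles of *Stim1*, *Orai1* and *Itpr1*, and up to 3 pathway genes per direction with p below 0.05. As no pathway gene met it, those in the text were chosen outside the rule, after their values were seen. Members and lists were chosen with earlier results of these data known. Results for some genes are not reported here. Tests compare the genotype means against the spread between mice.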

Additional observations from a re-analysis of the deposited data

Results flagged for a closer look

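In *Shank3(+/+)*, *Itpr1* was at 26.1 CPM in WT4, far from the other 3 mice at 32.33 to 32.38 CPM. The gap to the nearest mouse was 0.993 of the range of the 4 mice. This was the only such gap among 34 groups of values examined for a sample far from the rest, and chance gives about 1 in 20 groups.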

How the results depend on the processing

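None of the 9 genes reached an unadjusted p below 0.05 in any of the alternatives run for either comparison. The log2 fold changes of the 9 genes, in both comparisons, took 297 values under the alternatives, of which 296 moved by less than the SD between mice and 36 had the other sign. The lowest p was 0.0537, for *Itpr2* without KO1 (log2 fold change 0.27). The differences in shares took 80 values, with 19 of the other sign. With 7 mice, no exact test that leaves out 1 mouse can reach p below 0.05. The lowest p of 0.0667 is the smallest for 2 against 4 mice, and belongs to the share of *Itpr2* without KO1 (3.03 points), where KO3 and KO5 lay above every *Shank3(+/+)* mouse. Leaving out 1 mouse gave 0 to 2 pathway genes with an unadjusted p below 0.05 with 7 mice: *Itpkc* without KO1 (log2 fold change -0.50, FDR = 1.00), and *Irag2* (0.55, FDR = 1.00) and *Plch1* (-1.58, FDR = 0.971) without KO3, all from edgeR. Over all genes, DESeq2 called 6 with 7 mice and 7 with 9, where edgeR and limma-voom called 0. Mice of the same number deviated together with correlations of 0.373, 0.0524, 0.357 and 0.101, and 3 of 4 *Shank3Δ11(−/−)* mice correlated best with their own number, a hint of pairing from the data. Pairing was not assumed, since number 2 stayed below the 0.1 asked of every pair and the labels tie the numbers to no litter or batch. In a fit with a replicate block, 0 members and 0 pathway genes had p below 0.05 in either comparison. With 7 mice this used only 4 mice, and *Trpc1* moved to -0.48 on the log2 scale. *Stim2*, *Orai1* and *Orai3* turned sign in that fit, to 0.03, 0.15 and 0.09. *Trpc1* had the fewest counts, 80 to 147 per mouse.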
